A study of Mus musculus with 8 samples.

Results

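The Fanconi anemia genes Fanca, Fancb, Fancc, Fancd2, Fancg, Fanci, Fancl, Fancm and Brip1, 9 of the 22380 protein-coding genes in the mouse annotation, were examined for sites of 2 transcription factors, E2f3 and Myc. They were taken by name, with earlier results of these data known, and all 9 were found in the annotation. Other genes of the pathway, among them Fance and Fancf, were counted apart. The 8 ChIP-exo-seq lists of binding sites came from intestinal crypt cells, where the epithelium divides, and from villus cells, its differentiated part. In ChIP-exo-seq an exonuclease trims the precipitated DNA back to the crosslinked protein. Each list gives a site as a single position, as called by the authors' software. The mice were wild type, called control here, or Rb KO, called Rb-deficient here. Rb is the pocket protein that restrains E2F factors, and per the labels it was deleted with the inducible, intestinal Cre recombinase Ah-cre. All mice were of a mixed background from the strains C57BL/6, 129 and FVB/N, and ages are not given in the labels. Each combination of tissue, genotype and antibody (E2f3 or Myc) had 1 library. No difference between libraries therefore has a replicate check, no group was tested against another, and neither the genotype nor the cell type could be checked from lists of sites. No input library was used here.

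The Fanconi anemia pathway repairs interstrand crosslinks, lesions that join both strands of DNA and stop the replication fork. A core complex of Fanconi proteins, recruited by Fancm, acts as a ubiquitin ligase on the paired proteins Fancd2 and Fanci. The modified pair then brings in nucleases, translesion polymerases and homologous recombination. Crosslinks are repaired mainly in S phase, whose genes E2F factors are known to drive.

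E2f3 was found at the promoters of all 9 genes in both Rb-deficient libraries and of fewer in the control libraries. Here a promoter site is any site that lay 1 kb or less from an annotated start of the gene. Promoter sites were present at 9 of 9 genes in Rb-deficient crypt, where 21.1% of all protein-coding genes had one, and at 9 of 9 in Rb-deficient villus, where 13.0% of all genes did. In control crypt 7 of 9 genes had a promoter site, beside 15.7% of all genes, and in control villus 4 of 9, beside 4.83%. The members' shares were above the share of all genes in each of the 4 E2f3 libraries. These shares depend on the choice of the 9 genes, which was made with earlier results of these data known. Fance and Fancf, counted apart, had no E2f3 promoter site in any library. For Myc the shares were lower: 6 of 9 genes in control crypt (21.7% of all genes), 1 of 9 in Rb-deficient crypt (9.59%) and, of the villus libraries, 0 of 9 in the control (1.04%) and 0 of 9 in the Rb-deficient (0.603%).

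**Figure D1:**
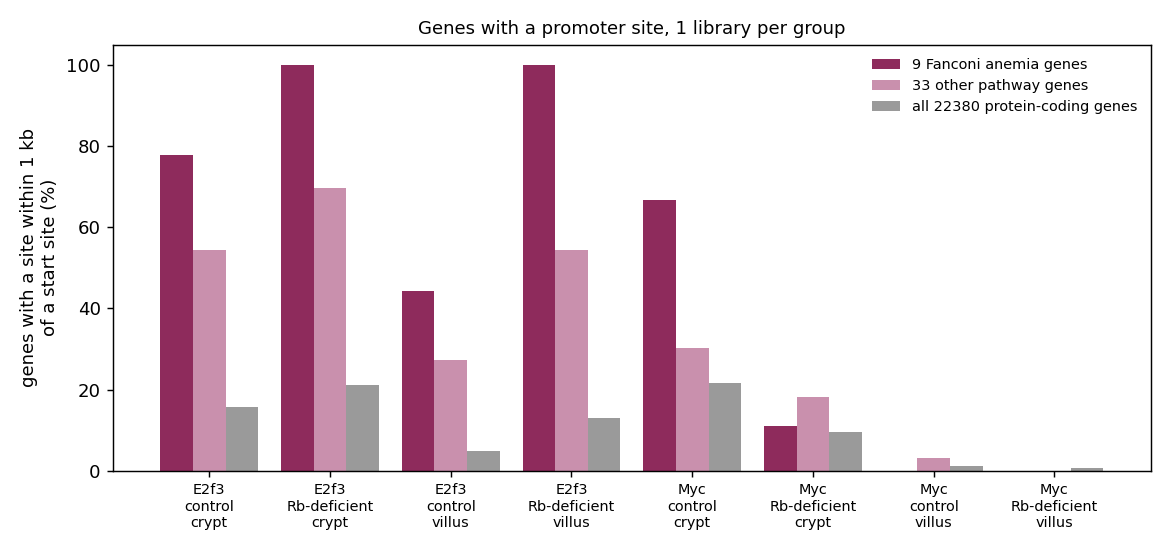
Share of genes (percent, vertical axis) with at least 1 site within 1 kb of a start site in each of the 8 libraries (horizontal axis), for the 9 Fanconi anemia genes, 33 other genes of the pathway and all 22380 protein-coding genes. The members' bars reach 100% in both Rb-deficient E2f3 libraries and 44.4% in control villus, and are at 0 in both villus Myc libraries.

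The lists differ in length. Those of E2f3 held 32666 (control crypt), 27396 (Rb-deficient crypt), 7405 (control villus) and 14843 sites (Rb-deficient villus), and those of Myc held 159181, 31397, 7223 and 4119 in the same order. Sequencing depth is unknown, and a longer list reaches more genes. With the 7405 highest-scored sites of each E2f3 list, 5 members had a promoter site in control crypt (5.14% of all genes) and 8 in Rb-deficient crypt (7.82%), and the villus counts were 4 (control, 4.83%) and 8 (Rb-deficient, 7.33%). With the 4119 highest-scored Myc sites no member had one in any library, beside 0.661%, 1.18%, 0.541% and 0.603% of all genes. The E2f3 counts were 7, 9, 2 and 8 with a score of at least 10 (9.36%, 11.9%, 2.36% and 5.63% of all genes), and 7, 9, 4 and 9 within 250 bp of a start (9.80%, 15.3%, 2.87% and 9.30%). Counting only starts of protein-coding transcripts left the members' E2f3 counts as they were, beside 14.5%, 20.1%, 4.46% and 12.4% of all genes.

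The positions of the best sites, as the authors' software called them, and the sequence under them are set out here by library. Whether sites of different libraries mark the same event was not tested. The deposited file names call the sites GEM events, and whether that calling used motifs to place positions was not tested. Of all E2f3 sites with a strict E2F motif (defined below) within 50 bp, most were centred on it. The share was 71.6% to 83.7%, by library and strand. A site centred on a motif, at the same base in several libraries, is therefore not particular to the genes below. The windows below are the 14 bases on each side of a best-scored E2f3 promoter site, on the plus strand of mm9. Capitals mark the strict E2F motif (the word TTCCCGC, the word TTGGCGC, the word TTCGCGC or the word TTGCCGC, on either strand) nearest the site or, where the window holds none, its 5-base core (the word CCCGC, the word GGCGC, the word CGCGC or the word GCCGC, on either strand), which is part of every strict match. Shown first are the pair with a strict motif at the same base in all 4 E2f3 libraries, then the pair at which 3 libraries gave the same base, 1 bp from the centre of a core, and last the genes at which a window changed with the library.
Fancc, chr13:63532987-63533015, all 4 libraries: tgtttggaattTTCCCGCggccgcaaggg
Fancl, chr11:26287133-26287161, all 4 libraries: ccagttagtttTTCCCGCcgaagcgggtt
Fancb, chrX:161418619-161418647, both crypts and Rb-deficient villus: gcaatgcgcggGCGGGaggtttggagtcc
Brip1, chr11:86014821-86014849, Rb-deficient crypt and both villi: tcgagtacttgGCGGGaccggaagacgag
Brip1, chr11:86014823-86014851, control crypt: gagtacttgGCGGGaccggaagacgagca
Fanca, chr8:125842468-125842496, Rb-deficient crypt: cggctctgcagCCCGCgctgccttccgat
Fanca, chr8:125842469-125842497, control crypt and Rb-deficient villus: ggctctgcagccCGCGCtgccttccgatt
Fancm, chr12:66176525-66176553, control villus: aaccaatcatcTTCCCGCcgcaaaatcgg
Fancm, chr12:66176565-66176593, Rb-deficient crypt: ttaacccgccagtCCCGCccccgggaccc
Fancm, chr12:66176595-66176623, control crypt and Rb-deficient villus: ctgtgtcgctgGCGGGagactaatgggcg
Fancg, chr4:43023240-43023268, Rb-deficient villus: ggaacaaggagGCGGGgagacaggaggcc
Fancg, chr4:43023354-43023382, Rb-deficient crypt: tggcaccagtctctgGCGGCgctctgcct
Fanci, chr7:86537346-86537374, Rb-deficient crypt: tgcgacgtggcgtCCCGCcgtgcctggtt
Fanci, chr7:86537365-86537393, control crypt, no motif or core: gtgcctggtttctgcgcaggggtcgggga
Fanci, chr7:86537370-86537398, Rb-deficient villus, no motif or core: tggtttctgcgcaggggtcggggacatca

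Scores are the authors' own values per site, between 2 and a cap of 999. What they measure and whether they are scaled between libraries is not stated, so each is given with its rank in its list, and differences between libraries are not interpreted.

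Fancc and Fancl, both of the core complex, had the same E2f3 position in all 4 libraries, at the centre of a TTCCCGC. Fancl encodes the ubiquitin ligase subunit. Its site at 26287147 on chromosome 11 lay 55 bp upstream of the nearest start, within the 5′ UTR of a longer transcript. It scored 47.81 (rank 2801) in control crypt, 134.64 (rank 456) in Rb-deficient crypt, 23.64 (rank 988) in control villus and 41.33 (rank 772) in Rb-deficient villus. Further sites, scored lower than the best site of the same library, lay 138 bp upstream in control crypt (18.52) and 157 bp upstream in Rb-deficient villus (4.19). The Fancc site at 63533001 on chromosome 13, in the 5′ UTR 1 bp downstream of a start, scored 36.32 (rank 4116), 69.66 (rank 1290), 2.78 (rank 6957) and 30.43 (rank 1209) in the same order. The control villus value for Fancc stood near the bottom of its list of 7405, whereas that for Fancl did not.

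Fancm, the DNA translocase that recruits the core complex, and Brip1, a helicase that partners Brca1, also had a site in all 4 E2f3 libraries. The Brip1 site, at 86014835 on chromosome 11 in 3 libraries, lay 140 bp upstream of the start, and in control crypt it lay 2 bp away at 86014837. Its scores were 125.75 (rank 511) in control crypt, 244.88 (rank 187) in Rb-deficient crypt, 15.48 (rank 1841) in control villus and 163.6 (rank 91) in Rb-deficient villus. In both Rb-deficient libraries these were the highest scores among the 9 genes. At Fancm the position moved over 70 bp between libraries, from 54 bp upstream of the start in control villus (score 4.53, rank 5780) through 14 bp upstream in Rb-deficient crypt (21.94, rank 6367) to 16 bp downstream in control crypt (19.35, rank 9170) and Rb-deficient villus (17.78, rank 2626). Of these positions, the control villus one was centred on a strict motif, and the Rb-deficient crypt one had it within 50 bp.

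Fanca, Fancb and Fanci had an E2f3 promoter site in both crypts and in Rb-deficient villus and none in control villus, a class that held 1105 or 4.94% of all genes. Fancb belongs to the catalytic module of the core complex with Fancl. Its site at 161418633 on chromosome X, in the 5′ UTR and 3 bp upstream of an internal start, scored 28.18 (rank 5857) in control crypt, 140.14 (rank 421) in Rb-deficient crypt and 49.33 (rank 571) in Rb-deficient villus. The position was the same in all 3. It also lay within 1 kb of the start of Mospd2, which runs the other way from 217 bp away, so the site cannot be given to either gene alone.

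Fanci, 1 of the pair of proteins that the core complex modifies, had high-ranked sites in the same 3 libraries. They scored 142.37 (rank 400) in control crypt, 172.34 (rank 311) in Rb-deficient crypt and 119.96 (rank 149) in Rb-deficient villus. The positions, from 86537360 to 86537384 on chromosome 7, lay 121 to 145 bp downstream of the nearest start and in an intron of the annotated transcripts. None had a strict E2F motif within 50 bp and all had one within 250 bp.

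Fanca, a core subunit, had its sites 6 or 7 bp upstream of the start, at 125842482 or 125842483 on chromosome 8. They scored 20.56 (rank 8545) in control crypt, 29.3 (rank 4466) in Rb-deficient crypt and 6.86 (rank 7789) in Rb-deficient villus. In Rb-deficient villus this was the lowest best score among the 9 genes, and it was not among the 7405 highest-scored sites. The Fanca sites also lie within the overlapping gene model Gm20388, and the lists cannot tell these apart. Neither a strict motif within 50 bp nor one within 250 bp was found at Fanca, the only member without one in any library where it had a site.

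Fancd2 and Fancg had E2f3 promoter sites in the Rb-deficient libraries alone, and none in control crypt or control villus. Fancd2, the partner of Fanci, had its best site 36 bp downstream of a start in Rb-deficient crypt (113481734 on chromosome 6, in the 5′ UTR, score 90.92, rank 836). In Rb-deficient villus the best site lay 104 bp downstream (113481802, in an intron, 24.13, rank 1691), with a second site 4 bp downstream of the start (113481702, 7.05). Thus the pair was within 68 bp but not at the same base. The start of Tmem111 lies 44 bp away on the other strand and shares these sites. Fancg, which binds Fanca in the core complex, scored 15.35 (rank 9422) at 43023368 on chromosome 4 in Rb-deficient crypt and 12.96 (rank 3916) at 43023254, 114 bp away, in Rb-deficient villus. Both lay in an exon of a non-coding transcript of Fancg, and the second had a strict motif within 50 bp. A lower-scored Rb-deficient crypt site (7.54) lay at 43023221, in the 5′ UTR with a strict motif within 50 bp, and another (11.45) 667 bp downstream of an internal start in a coding exon. Over all genes, 557 or 2.49% had an E2f3 promoter site in both Rb-deficient libraries and neither control library.

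**Figure D2:**
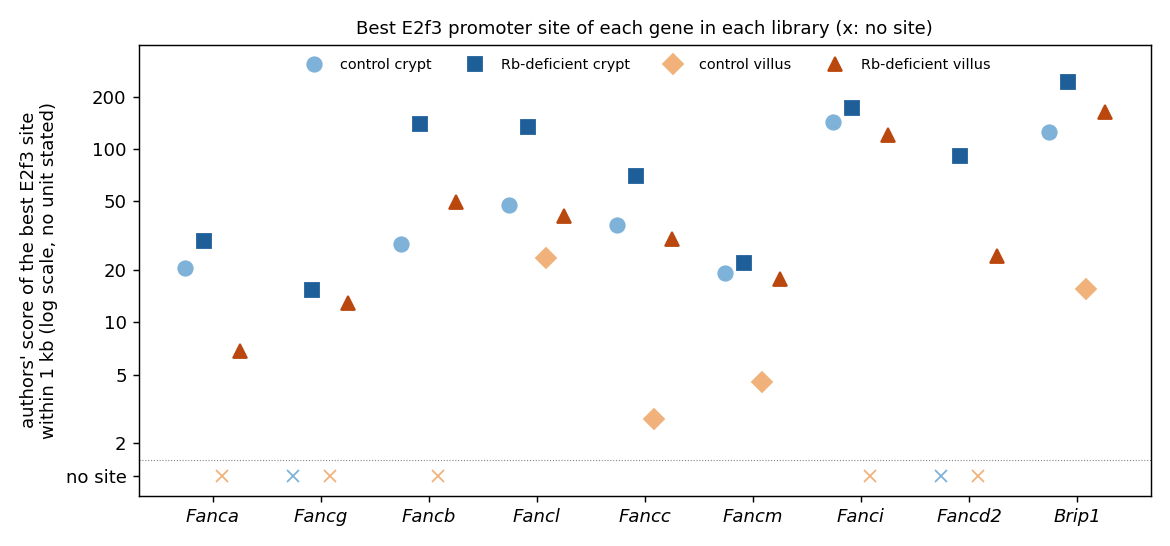
Authors' score (log scale, no unit stated) of the best E2f3 site within 1 kb of a start of each Fanconi anemia gene (horizontal axis) in the 4 E2f3 libraries, 1 point per library, with a cross where the list has no site. Crosses are in control villus for Fanca, Fancg, Fancb, Fanci and Fancd2 and in control crypt for Fancg and Fancd2, and none is in a Rb-deficient library.

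Between the villus libraries, 5 genes (Fanca, Fancb, Fancd2, Fancg and Fanci) had a promoter site in Rb-deficient villus only, 4 (Fancc, Fancl, Fancm and Brip1) in both, and 0 in control villus only. The same 3 classes held 8.95%, 4.01% and 0.818% of all genes. With 7405 sites from each list, 4 members (Fancb, Fancd2, Fancg and Fanci) were in the first class, beside 4.0% of all genes, 4 in both, beside 3.33%, and 0 in control villus only, beside 1.5%. Between the crypt libraries, 2 genes (Fancd2 and Fancg) had a site in Rb-deficient crypt only, beside 8.31% of all genes, 7 in both, beside 12.8%, and 0 in control crypt only, beside 2.91%. At equal length Fanca, Fancd2 and Fancm were in the Rb-deficient crypt class (3.25% of all genes), 5 were in both (4.57%), 0 in control crypt only (0.567%) and Fancg had no site in either. Between control crypt and control villus, Fanca, Fancb and Fanci were present in crypt only (11.4% of all genes), 4 in both (4.37%) and 0 in villus only (0.456%). At equal length this held for Fancb and Fanci (1.92%), while Fancm was present in villus only (1.61%) and 3 in both (3.22%). Between the Rb-deficient libraries, all 9 were in both, beside 11.3% of all genes, and 0 in crypt or villus only, beside 9.82% and 1.64%. At equal length 7 were in both (5.40%), Fanca in crypt only (2.43%) and Fancg in villus only (1.93%). These comparisons share libraries and are not independent of each other.

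The genes Fancc, Fancl, Fancm and Brip1 had sites in all 4 E2f3 libraries within 250 bp of each other, and 815 or 3.64% of all genes had a promoter site in all 4. Over the 9 genes, with an absent site set to 0, the median percentile of the best score within its list in the crypt libraries was 82.1 (control) and 97.0 (Rb-deficient), and in the villus libraries 0 (control) and 91.9 (Rb-deficient). The same median over all genes was 0 in every library, since most genes had no site. The genes outside the pathway lists nearest to this median profile over the 4 E2f3 libraries were Ect2, a cytokinesis gene, Tyw1, Sac3d1, Sae1 and 2610528E23Rik, with summed percentile differences of 2.97, 3.13, 4.75, 4.93 and 5.11. Ect2 scored 29.68 in control crypt, 92.79 in Rb-deficient crypt and 35.56 in Rb-deficient villus and had no site in control villus.

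A strict E2F motif lay within 50 bp of the best site for 2 of 7 members in control crypt, 4 of 9 in Rb-deficient crypt, 3 of 4 in control villus and 3 of 9 in Rb-deficient villus. Over all genes with a site the shares were 38.4% (95% exact binomial interval 36.8% to 40.1%), 33.9% (32.5% to 35.2%), 57.8% (54.8% to 60.7%) and 38.4% (36.7% to 40.2%). These intervals cover counting error only. Within 250 bp the members' counts were 6 of 7, 8 of 9, 4 of 4 and 8 of 9, beside 47.5%, 45.2%, 65.2% and 51.2% of genes. The 5-base core lay within 10 bp at 6 of 7, 9 of 9, 4 of 4 and 7 of 9 members, but also at 71.0%, 83.0%, 76.4% and 84.5% of all genes with a site. No best E2f3 site of a member had the E-box CACGTG, the Myc motif, or the CHR element (TTTGAA or TTCGAA, either strand), which is known from mitotic promoters, within 50 bp. These were found at 2.87% to 4.14% and 6.11% to 9.69% of all genes with a site.

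The promoter sequences themselves, independent of any site, were taken from RefSeq (GRCm38.p6) from 250 bases before to 50 after the start, and 8 of the 9 genes matched, all but Fancd2. A strict E2F motif was present in 5 of 8 (Brip1, Fancb, Fancg, Fanci and Fancm), beside 12.1% of 21263 protein-coding promoters of the same length. For Fanca, Fancg, Fancm and Brip1 the RefSeq window held the 29-base windows of all their best E2f3 sites. For the other 4 matched genes, Fancb, Fancc, Fanci and Fancl, it held none of them in full, so for these it does not show the sequence at the E2f3 site, and the motif words at the Fancc and Fancl sites lie outside it. Fanca, Fancc and Fancl were the genes without the strict motif in the RefSeq window. A CCAAT box (CCAAT, either strand) was present in 5 of 8, beside 38.2%, the E-box in 0 of 8, beside 7.84%, and the CHR element in 0 of 8, beside 17.6%.

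**Figure D3:**
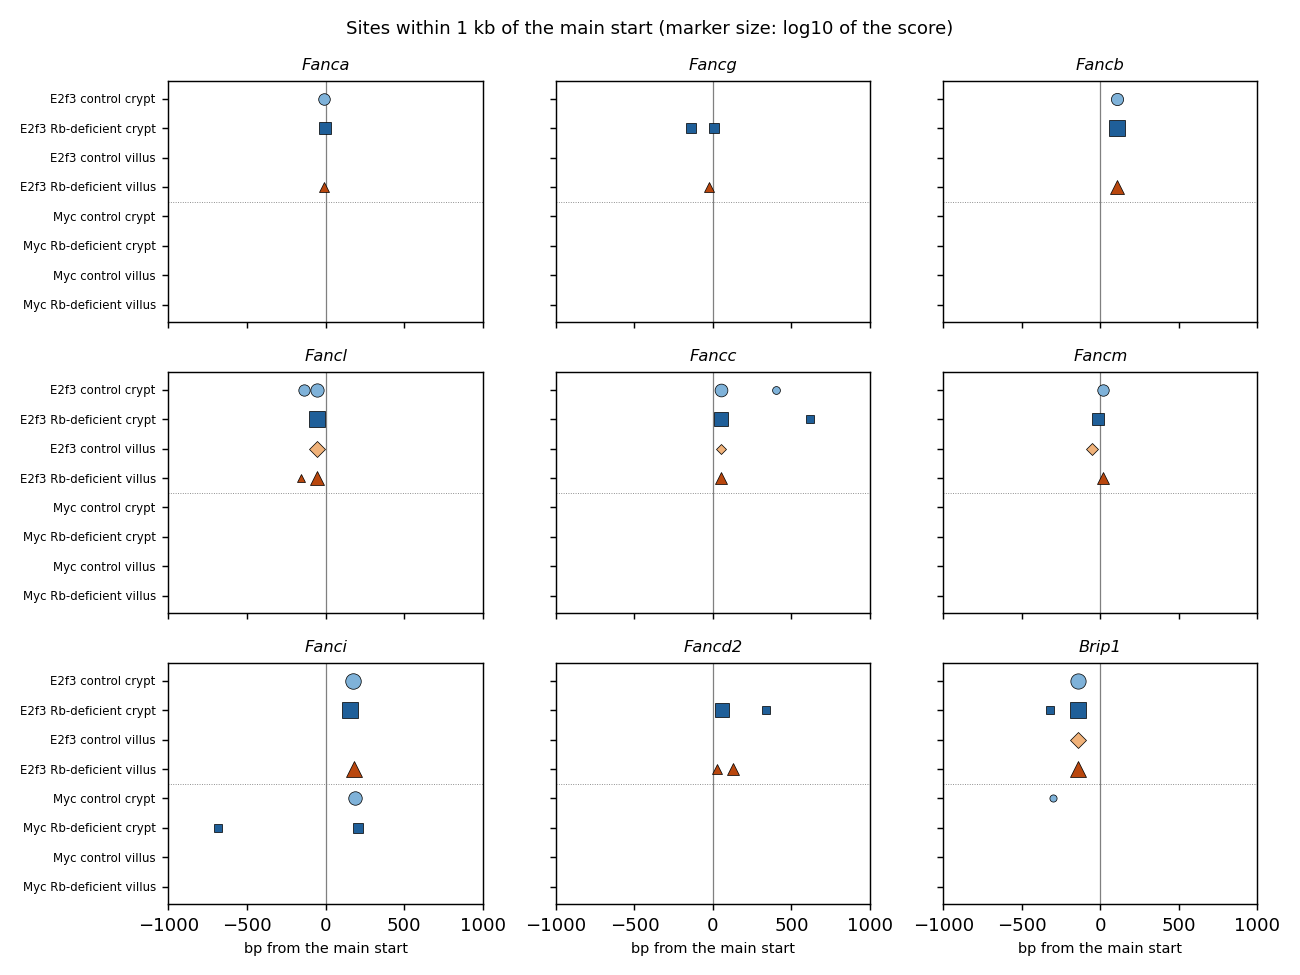
Sites within 1 kb of the main start of each of the 9 genes (horizontal axis, bp from the main start in the direction of transcription), with 1 row for each library and marker size following log10 of the score. E2f3 sites cluster near the start in each panel, and Myc sites appear only at Fanci and Brip1.

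Myc sites at these genes came mainly from the longest list and mostly lay away from the main start, the start nearest which most coding transcripts of a gene begin (within 250 bp). In control crypt, Fanca, Fancc, Fancd2, Fanci, Fancl and Brip1 had a Myc site within 1 kb of some start, but those of Fanca, Fancc, Fancd2 and Fancl lay at internal starts. The Fancl site (score 2.38), for example, lay 81074 bp into the gene. At the main start, 2 genes remained, Fanci (52.31, rank 22869) and Brip1 (2.38, rank 154719). The share of all genes with a Myc site at the main start is not given here, so this count has no background. The annotated starts of a member ran from 1 (Fancm) to 17 (Fancc), and a gene with more starts has more places where a site counts. None of the 8 control crypt Myc sites within 1 kb of a start had an E-box within 50 bp.

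In Rb-deficient crypt, Fanci was the only member at whose promoter Myc was listed. The best site lay 172 bp downstream of the nearest start at 86537411 (score 11.79, rank 13019), 51 bp from the E2f3 site of the same library, with a second site 299 bp upstream (3.73). In control crypt the Myc site at 86537393 lay 14 bp from the E2f3 site. Neither position had an E-box within 250 bp. Promoter sites of both factors were present at 1215 or 5.43% of all genes in Rb-deficient crypt and 1653 or 7.39% in control crypt. The same held for 1 and 5 of the 9 members. Each factor was counted at any annotated start, so the sites of a gene need not lie together. In control crypt the closest E2f3 and Myc promoter sites were 42175 bp apart at Fanca, 22016 bp at Fancc and 81129 bp at Fancl. They were 14 bp apart at Fanci and 158 bp at Brip1, whose Myc site scored 2.38. Such distances are not given here for all genes. In control and Rb-deficient villus both factors were at 0 members, beside 0.608% and 0.487% of all genes.

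Within 5 kb of a start, E2f3 was found at 8 of 9 genes in control crypt (28.2% of all genes), 9 of 9 in Rb-deficient crypt (31.2%), 5 of 9 in control villus (8.43%) and 9 of 9 in Rb-deficient villus (19.1%). The Myc counts were 7 (57.1%), 4 (22.8%), 1 (4.47%) and 0 (2.68%). The added E2f3 genes were Fancd2 in control crypt and Fanca in control villus, and both came from sites deep in the gene that the Myc antibody also gave. In Fanca, a coding exon 32067 to 32103 bp downstream of the main start held a site in 7 of the 8 libraries, all but Rb-deficient villus Myc. Its scores were 73.25, 74.14, 10 and 29.54 in the E2f3 libraries (control crypt, Rb-deficient crypt, control villus, Rb-deficient villus), and 999, the cap, in control crypt Myc, 70.58 in Rb-deficient crypt Myc and 21.97 in control villus Myc. In Fancd2, an intronic position 41237 to 41252 bp downstream held a site in all 4 crypt libraries, with E2f3 scores of 13.18 and 8.6 and Myc scores of 97.87 and 10.76 in control and Rb-deficient crypt. A region 2503 to 2521 bp upstream of Fanca held a site in 5 libraries, again of both antibodies. The E2f3 sites at the main starts of Fanca, Fancb, Fancc, Fancd2, Fancg, Fancl and Fancm had no Myc site within 1 kb of that start. Lacking Myc was common over all genes with an E2f3 promoter site. In crypt, 1653 of 3523 (control) and 1215 of 4732 (Rb-deficient) also had a Myc promoter site. In villus, 136 of 1080 (control) and 109 of 2901 (Rb-deficient) did. These counts take any annotated start, and no share of all genes at the main start is given here. The sites nearest the 1 kb limit were Myc sites of control crypt, at 692 bp (Fancd2, 7.12) inside it and at 1039 bp (Fanca, 20.91) and 1066 bp (Fancc, 18.77) outside it.

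Of 33 other genes of the pathway, 18 (54.5%) had an E2f3 promoter site in control crypt, beside 15.7% of all genes. In Rb-deficient crypt 23 (69.7%) had one, beside 21.1%. In villus the counts were 9 (27.3%) for the control, beside 4.83% of all genes, and 18 (54.5%) for the Rb-deficient library, beside 13.0%. Among the highest scores in Rb-deficient villus were those of Cenps (106.35), a DNA-binding partner of Fancm, Rmi2 (69.71), of the Bloom helicase complex, and the recombination genes Brca1 (66.72) and Brca2 (52.11). Each also had a site in control villus, with 59.59, 52.0, 22.42 and 18.39. Mad2l2, Rfwd3 and Wdr48, named after their values were seen, were likewise in both villus libraries.

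A further 10 genes had a site in Rb-deficient villus and none in control villus, beside 8.95% of all genes. Among them were Ube2t (13.18), the conjugating enzyme that works with Fancl, and Usp1 (43.9), which removes ubiquitin from Fancd2. The others were Rev3l (37.61), of a translesion polymerase, Blm (21.69), the Bloom helicase, Rad51c (21.0), Xrcc2 (16.18), Rmi1 (15.5), the nuclease subunit Eme1 (12.56), Cenpx (10.8) and Palb2 (9.09). Hes1 alone, again named after its values were seen, was in control villus (12.93) and not in Rb-deficient villus.

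No E2f3 promoter site was listed in any library for 6 of the 33 genes, while this held for 16729 or 74.7% of all genes. Named after their values were seen, they were Fance, Fancf, Ercc1, Ercc4, Fan1 and Slx4. The core complex partners Faap20, Faap24 and Faap100, also named afterwards, had sites in crypt alone, with scores of 2.91 (Faap20) and 16.41 (Faap100) in control crypt and 8.2, 4.06 and 8.31 in Rb-deficient crypt. Myc sites were present at 10, 6, 1 and 0 of the 33 genes in the usual order of libraries (control crypt first), beside 21.7%, 9.59%, 1.04% and 0.603% of all genes. In Rb-deficient crypt the highest was at Brca2 (32.47), 92 bp upstream of a start, and in control villus the single gene was Wdr48 (6.73).

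**Figure D4:**
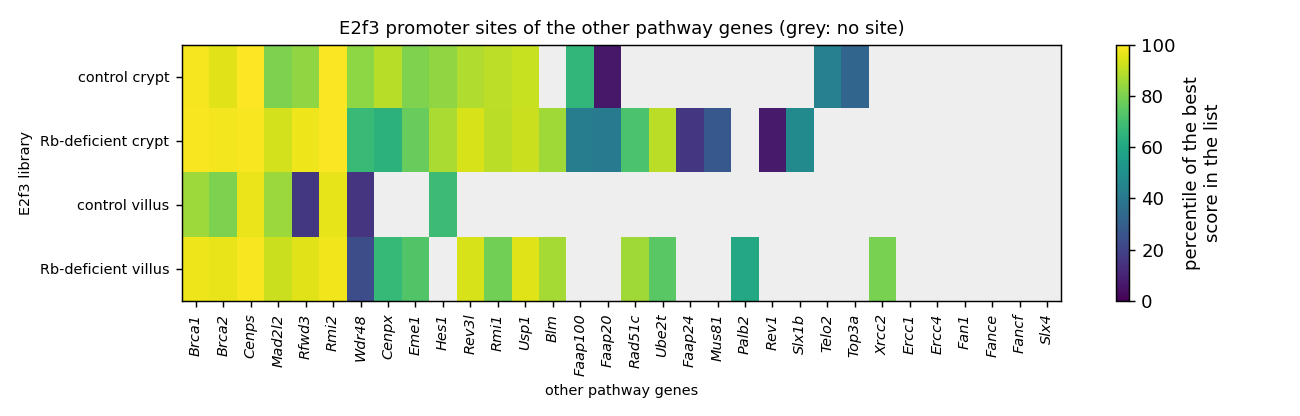
Best E2f3 promoter site of other pathway genes (horizontal axis) in the 4 E2f3 libraries (vertical axis), coloured by the percentile of its score in that list and grey where the list has no site. The first 7 columns, Brca1 to Wdr48, hold the plotted genes with a site in all 4 libraries, and the last 6 columns hold the genes with none.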

How the data were processed

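Per the submitters' processing notes, Bowtie2 2.2.1, MACS2 2.0.10 and the build mm9 were used. Per the names of the deposited files, each list holds GEM events overlapping MACS2 peaks, from merged data with duplicates kept; the sources used here give neither what was merged nor the thresholds. The authors deposited a position and a score per site, with no normalization stated. Deposited positions plus 1 are printed, since strict E2F motifs were then centred at a median of 0 bp from E2f3 sites on both strands in 4 libraries.

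Sites were joined with Python 3.11.15 to 70064 start sites of 22380 protein-coding genes of GENCODE M1 (NCBIM37, the assembly of mm9). Between 145 and 201 sites per library on contigs outside it got no gene. Sites within 250 bp were called shared. The joining was tested on simulated sites. Intervals are exact binomial (scipy 1.17.1).

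Members and lists were chosen with earlier results of these data known. All 9 members are named. Of the other genes, those with an E2f3 promoter site in Rb-deficient but not control villus and the 5 highest-scored in Rb-deficient villus are named, except for 1 that is not reported here. The 33 were all matched, 6 by an older symbol. Genes sharing a site with a member and the 5 nearest in score percentile are named too. With 1 library per group no test was made.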

Additional observations from a re-analysis of the deposited data

How the results depend on the processing

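Of 62 recomputed counts, 50 stayed within 1.5 times the reported count and 12 did not. The 50 include villus Myc counts of 0, which fewer sites or starts cannot change, and E2f3 counts of 9 of 9, which cannot rise. The 50 therefore overstate how stable the counts are. The E2f3 promoter counts of Rb-deficient crypt, Rb-deficient villus and control crypt were among the 50 under every setting tried (5 kb, 250 bp, a score of at least 10, equal list length, starts of protein-coding transcripts, and the main start, the last chosen after seeing the data). For control villus, a score of at least 10 left 2 of the 4 genes. For Myc in control crypt the 6 genes became 0 at equal list length (4119 sites) and 2 with the main start only. In Rb-deficient crypt the 1 gene became 4 within 5 kb and 0 at equal length, and in control villus the count of 0 became 1 within 5 kb. The number of best E2f3 sites with an E2F motif was higher under the other searches. Within 250 bp it was 6 in control crypt, 8 in Rb-deficient crypt and 8 in Rb-deficient villus, and with the 5-base core within 10 bp it was 6, 9 and 7. Apart from the core counts, the direction of these changes follows from the settings' construction: a wider window can only add, and fewer sites or starts can only remove. The core search joins a shorter word with a narrower window, so its direction was not fixed in advance. No paired analysis was possible because each group has 1 library. Depth is unknown, so a gene without a site may lie under a list's limit.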
